A study of Mus musculus with 12 samples.

Results

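The ErbB receptors and their ligands were followed across the salivary tumors by taking every array probe set whose single annotated gene symbol is Egfr, Erbb2, Erbb3, Areg, Ereg, Hbegf, Tgfa, Btc or Errfi1. Of these 9 genes, 8 were measured, by 18 probe sets among the 22626 tested, or 8 of 12393 genes named by a single symbol. No probe set carried the symbol Areg in the annotation used, so this ligand was not analysed here. Of the 18 probe sets, 10, of 6 genes, lay above the array's median level in at least 4 tumors. The probe sets of Ereg and Btc did not, nor did Egfr 1454313_at, 1451530_at and 1432647_at, Erbb3 1452482_at and Tgfa 1421942_s_at. All 18 were tested.

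RNA from 12 tumors, 1 array per tumor, was compared over 3 genotypes of adult mice with 4 tumors each: MMTV-ras/p53R172H/R172H (MT1 to MT4), MMTV-ras/p53-/- (KO1 to KO4) and MMTV-ras/p53+/+ (WT1 to WT4). All 3 groups carry an activated Hras transgene driven by the MMTV promoter, which is active in salivary and mammary epithelium, so no group is free of oncogenic Ras. MT mice are homozygous for the p53 missense allele R172H at the endogenous locus, and KO mice lack p53 altogether. Per the study, mice of all 3 genotypes had a mixed background of C57BL/6 and BALB/c. The R172H allele was brought in from C57BL/6 mice, and its colony was then interbred. The question of the design was how loss of p53 and a missense p53 differ from wild-type p53, and from each other, within 1 tumor type. The values are RNA levels of whole tumor sections on a log2 scale, so that fewer cells of a type and less RNA per cell cannot be told apart. No probe set carried the symbol Trp53 in the annotation used, so the targeted gene was not checked here.

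ErbB proteins are receptor tyrosine kinases of epithelial cells. Egfr binds the ligands followed here. Erbb2 has no known ligand of its own and acts as the preferred partner of the other receptors. Erbb3 has a weak kinase and couples the pair to PI3 kinase. The ligands are made as membrane proteins and released by metalloproteases. The signal runs through Ras to MAP kinases, which in turn raise the transcription of several ligands and of Errfi1, a cytoplasmic inhibitor of the receptor kinases, so that the genes form a feedback circuit around the same Ras protein that drives these tumors.

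Promoter sequence was available for 5 of the 8 genes (RefSeq, GRCm38.p6), and 3 are shown. Erbb2 is the receptor called in KO against WT tumors, and Egfr and Errfi1 are the receptor and the inhibitor of the circuit for which a promoter was listed. Each runs 5′ to 3′ on the gene's strand, as 250 bases before and 20 after the annotated start. Capitals mark matches, on either strand, to GAGGAA (a form of the Ets site), the cAMP response element TGACGTCA, the AP-1 site TGANTCA, the GC box GGGCGG or the TATA box TATAAA. Other forms of the Ets site were not searched and stay in lower case.
Erbb2, chr11:98412234-98412503: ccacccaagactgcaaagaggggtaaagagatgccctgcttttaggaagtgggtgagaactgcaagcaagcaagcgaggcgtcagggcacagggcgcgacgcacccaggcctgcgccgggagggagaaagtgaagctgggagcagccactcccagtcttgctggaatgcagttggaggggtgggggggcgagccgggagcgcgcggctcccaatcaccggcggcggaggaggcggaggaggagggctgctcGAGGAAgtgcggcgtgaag
Egfr, chr11:16751953-16752222: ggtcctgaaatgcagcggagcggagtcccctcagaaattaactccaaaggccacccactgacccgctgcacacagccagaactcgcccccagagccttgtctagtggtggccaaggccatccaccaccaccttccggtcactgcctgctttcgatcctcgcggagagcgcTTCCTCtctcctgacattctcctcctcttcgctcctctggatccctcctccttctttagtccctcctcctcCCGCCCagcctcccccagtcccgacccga
Errfi1, second listed start, chr4:150854820-150855089: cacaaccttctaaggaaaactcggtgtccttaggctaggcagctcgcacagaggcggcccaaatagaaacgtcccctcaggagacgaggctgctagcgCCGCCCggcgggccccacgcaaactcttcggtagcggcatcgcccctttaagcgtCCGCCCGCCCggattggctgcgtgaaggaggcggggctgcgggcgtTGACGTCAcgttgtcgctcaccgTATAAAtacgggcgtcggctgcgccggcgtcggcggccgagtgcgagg

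The Erbb2 window held GAGGAA once, at positions 2 to 7 after the start, a motif that 25.1% of all 32851 promoter windows of this length hold. That of Egfr held the same motif on the reverse strand and 1 GC box on the reverse strand, which 34.1% of windows hold. In the Errfi1 window TGACGTCA, its own reverse complement, lay at -51 to -44 and TATAAA at -28 to -23. These motifs occur in 1.73% and 12.9% of windows. The 3 reverse-strand GC boxes of Errfi1 include a pair that overlaps. TGANTCA, held by 7.23% of windows, matched in none of the 3 windows shown. The window of the first listed Errfi1 start, not shown, held none of the motifs searched. A match is a stretch of letters and was not tested as a binding site.

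Erbb2 was the member whose MT and KO tumors parted from the WT tumors. The single Erbb2 probe set (1424919_at), which reads the receptor that pairs with the others, measured 8.39, 8.61, 8.49 and 7.87 in MT1 to MT4, 9.05, 8.54, 8.88 and 7.85 in KO1 to KO4, and 6.93, 7.61, 7.18 and 7.63 in WT1 to WT4. Every MT tumor and every KO tumor lay above all 4 WT tumors, with MT4 and KO4 the lowest of their groups. The means were 8.34 ± 0.33 in MT, 8.58 ± 0.53 in KO and 7.34 ± 0.34 in WT tumors (SD, n = 4 each).

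In KO tumors Erbb2 was higher than in WT tumors by 1.24 on the log2 scale (SE 0.27, 95% interval 0.66 to 1.83), or 2.37-fold, with an adjusted p of 0.0289 by limma. The adjustment is over all probe sets, with 0.05 as the threshold. The MT tumors exceeded the WT tumors by 1.00 (SE 0.27, interval 0.41 to 1.59), or 2.00-fold, which did not pass the threshold (adjusted p = 0.102). MT minus KO was -0.24 (SE 0.27, interval -0.83 to 0.35, adjusted p = 0.84), so that the order was KO, MT, WT with the first pair not separated beyond its spread. In the F test over the 3 genotypes the adjusted p was 0.0547. The call in KO tumors was lost when KO1, KO2, KO3, WT1 or WT3 was left out, with adjusted p between 0.063 and 0.0815.

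**Figure D1:**
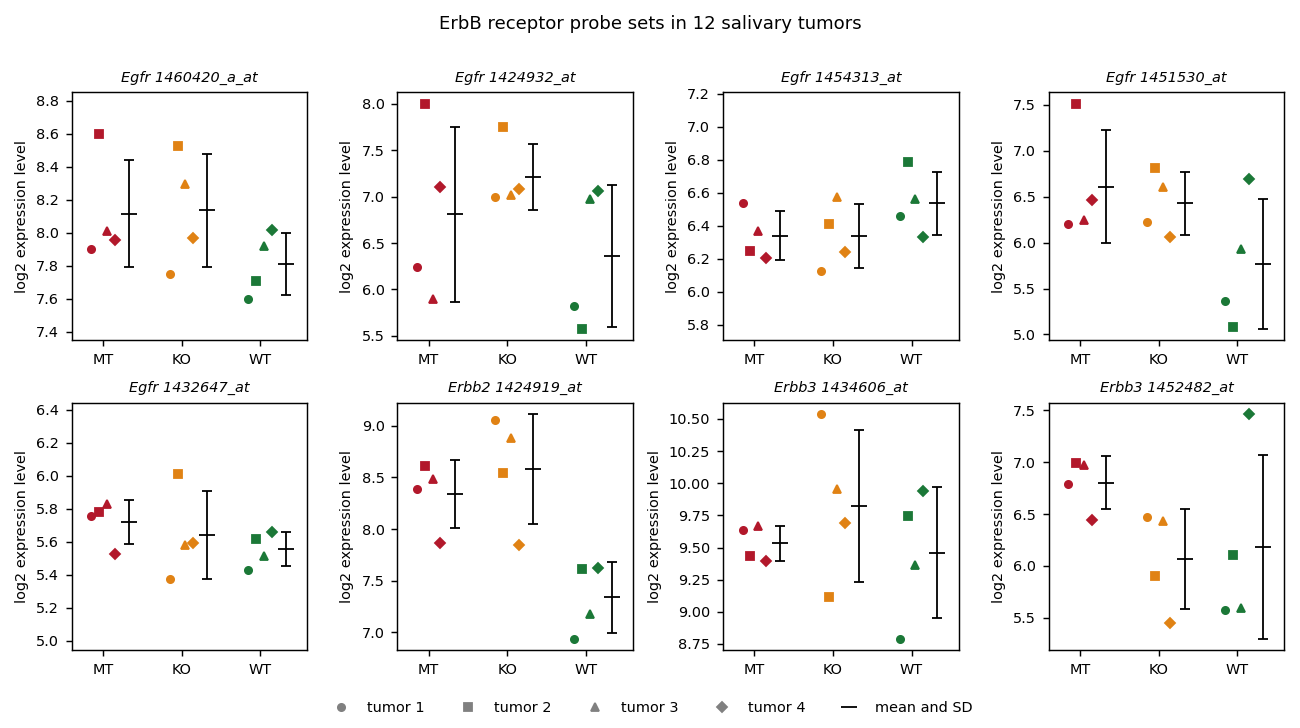
Log2 expression level (vertical axes) of the 8 receptor probe sets in MT, KO and WT tumors. Each symbol is 1 tumor and the bars give the mean and SD of 4. Erbb2 lies at 7.85 or above in every MT and KO tumor and at 7.63 or below in every WT tumor, and in the other panels the genotypes overlap.

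Erbb2 was the 1 member probe set of 18 called in KO against WT tumors, beside 4.57% of all probe sets. None was called in MT against WT tumors, where 0.367% of all probe sets were, or in MT against KO tumors, where 0.00884% were. Below an unadjusted p of 0.05 lay 2 member probe sets in KO against WT (23.9% of all), 4 in MT against WT (19.4% of all) and 1 in MT against KO (9.58% of all), all of them higher in the group named first. Groups without overlap occurred at Erbb2 in both comparisons with WT (14.5% of all probe sets for KO and 10.9% for MT) and at no member between MT and KO (4.85% of all). Neither the F test, which called 2.34% of all probe sets, nor the study's SAM procedure at a false discovery rate of 1%, which called 0.566%, called a member (in the F test 2 of 18 had an unadjusted p below 0.05, beside 22.3% of all probe sets). As a list the members thus gave shares near or below those of the array as a whole. Their median difference was 0.26 for KO minus WT and 0.36 for MT minus WT, beside -0.02 and -0.01 over all probe sets, and -0.0038 for MT minus KO, beside 0.02.

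**Figure D2:**
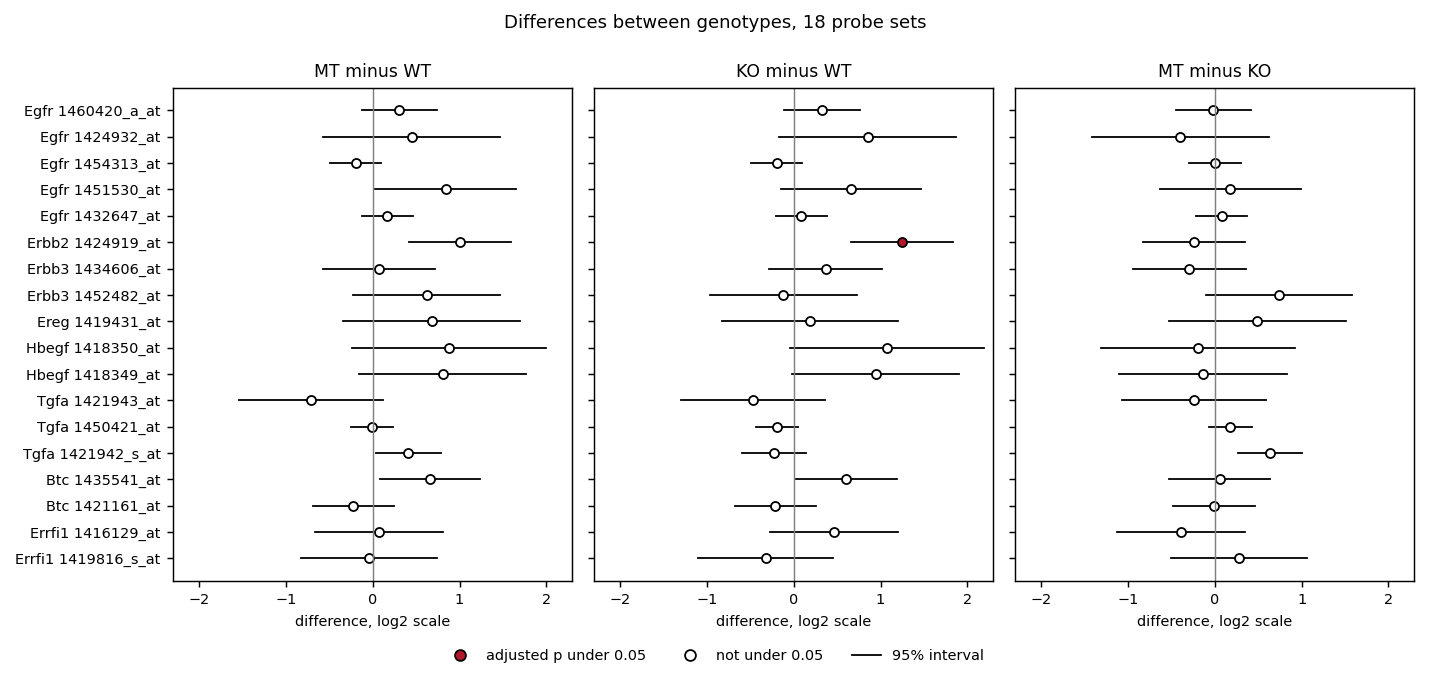
Differences between genotypes on the log2 scale (horizontal axes) for the 18 probe sets, with 95% intervals from the fit to 12 tumors. The filled point, Erbb2 at 1.24 in KO minus WT, is the only one with an adjusted p below 0.05.

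Marker levels of cell types were set beside Erbb2, and single tumors did not all follow it. MT3, at 10.22, was the lowest MT or KO tumor in the luminal list with Erbb2 at 8.49, and KO4 stood at 10.62 with Erbb2 at 7.85. The 8 luminal epithelial markers listed (Krt7, Krt8, Krt18, Krt19, Epcam, Cdh1, Elf3 and Cldn7) were all measured, and their mean log2 level was 10.22 to 10.76 in MT, 10.59 to 10.91 in KO and 9.36 to 10.70 in WT tumors. WT1 and WT3, the tumors with the least Erbb2, were also the lowest in this list, whereas WT2 reached levels of MT and KO tumors and WT4, at 10.52, only levels of MT tumors. The mean of the 7 acinar markers ran the other way, at 8.52 to 10.18 in MT, 7.83 to 9.74 in KO and 10.58 to 11.72 in WT tumors. In this mean the WT tumors did not overlap the others. Of single markers, named after their values were known, Prpmp5, Dcpp1, Bhlha15 and Lpo also lay higher in every WT tumor. Aqp5, Smr3a and Amy1 did not, and Aqp5 was highest in KO2, at 13.01, with at most 12.34 in WT tumors. The mean of the 7 macrophage markers stood at 8.14 to 9.31 in MT, 8.50 to 8.99 in KO and 9.40 to 9.84 in WT tumors, and in this mean the WT tumors lay above all others. Basal and myoepithelial markers, at 6.26 to 6.41 in MT, 6.22 to 6.54 in KO and 6.44 to 6.74 in WT tumors, parted MT from WT but not KO from WT. T and B cell markers stood at 8.31 in WT1 and at 5.18 to 5.58 in the other 11 tumors. The part of these cells in the Erbb2 difference was not tested. With WT1 left out, KO minus WT was 1.11 for Erbb2 and no longer passed the threshold (adjusted p = 0.0807).

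**Figure D3:**
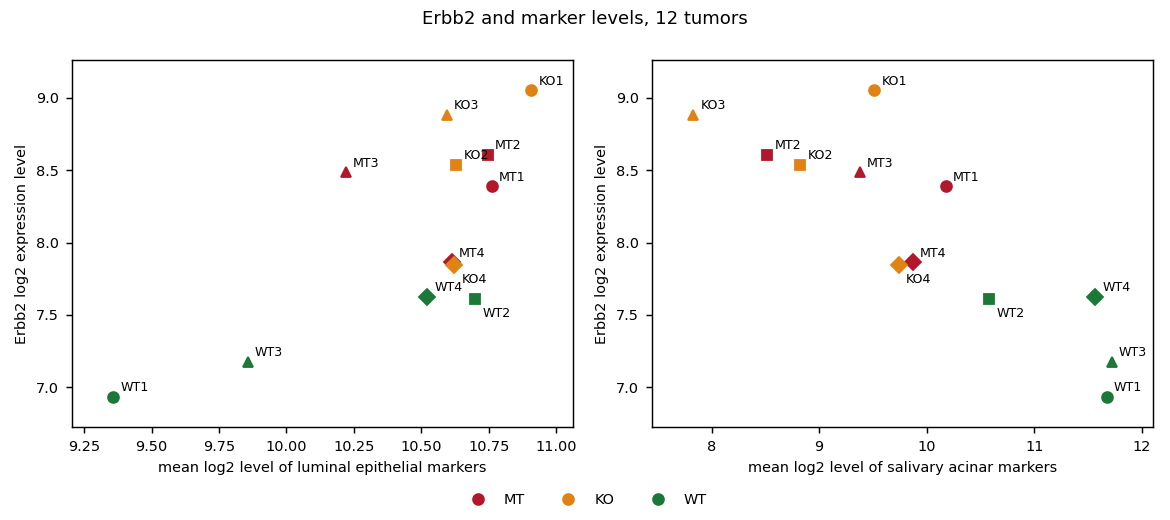
Erbb2 log2 level (vertical axes) against the mean log2 level of 8 luminal epithelial markers (left) and 7 salivary acinar markers (right), 1 point per tumor, for MT, KO and WT. WT1 and WT3 are lowest in luminal markers and in Erbb2, and the 4 WT tumors are highest in acinar markers.

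Spike-in controls for labeling, the poly-A controls, read 10.38 to 10.56 on the arrays of MT1 to MT3 and 3.98 to 4.23 on the other 9, a split that no source names. MT against the other genotypes within the lower level rests on MT4 alone. There Erbb2 was higher than in WT by 0.53 (adjusted p = 0.747), and leaving MT4 out gave 1.16 (adjusted p = 0.0476). The KO and WT tumors all lie on the same side of the split, and their difference in Erbb2 was 1.24 with this block too (adjusted p = 0.0269).

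Genes beside Erbb2 on chromosome 11 were examined because the locus is amplified as a block in some human breast cancers. Of 8 listed neighbors 6 were measured and none was called in any comparison. Stard3, a cholesterol transfer protein of endosomes, differed from WT by 0.77 in MT (adjusted p = 0.101) and by 0.42 in KO tumors (adjusted p = 0.241). For Grb7, an adaptor that binds Erbb2, the differences were 0.72 in MT and 0.66 in KO tumors (adjusted p = 0.252 and 0.239). Mien1, the nearest gene on the other side of Erbb2 from Pgap3, gave 0.11 in MT and 0.12 in KO tumors, Tcap gave -0.13 and -0.27, Ppp1r1b 0.38 and -0.31, and Neurod2 0.11 and -0.17. The difference from WT was above 0 for 5 of 6 neighbors in MT tumors, with a median of 0.25, and for 3 of 6 in KO tumors, with a median of -0.02, beside -0.01 over all genes in both. Against WT, unadjusted limma p-values were below 0.05 in MT tumors for 2 of the 6, Stard3 and Grb7, both higher (18.7% of all genes). In KO tumors this held for 1 of the 6, Tcap, which was lower than in WT (23.9% of all genes). The 6 neighbors are named here after their values were known. Over the 1712 probe sets of chromosome 11 the median difference was 0.12 for MT minus WT and 0.08 for KO minus WT.

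Among 12385 other genes, those most like Erbb2 over the 12 tumors by Pearson correlation were Upp1 (uridine phosphorylase, r = 0.93), Kctd10 (r = 0.91) and Col9a3 (a collagen chain, r = 0.91). These correlations, like those below, are descriptions over 12 tumors that share genotypes and 1 normalization, and carry no test.

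Erbb3, the receptor that links the pair to PI3 kinase, was read by 2 probe sets. The brighter (1434606_at) measured 9.63, 9.43, 9.67 and 9.40 in MT, 10.54, 9.12, 9.96 and 9.69 in KO, and 8.79, 9.75, 9.36 and 9.94 in WT tumors. KO1 was the highest tumor and WT1 the lowest, and the 3 genotypes overlapped. Differences were 0.37 for KO minus WT (SE 0.30, adjusted p = 0.485), 0.07 for MT minus WT (adjusted p = 0.917) and -0.29 for MT minus KO (adjusted p = 0.822).

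The other Erbb3 probe set (1452482_at) correlated with it at r = 0.43 over the tumors. It measured 6.79, 6.996, 6.98 and 6.45 in MT, 6.47, 5.90, 6.43 and 5.45 in KO, and 5.57, 6.10, 5.59 and 7.47 in WT tumors. WT4 was the highest tumor here, and only KO1 of the KO tumors came above the lowest MT tumor. MT minus KO was 0.74 (SE 0.39, interval -0.10 to 1.59, adjusted p = 0.584) and 0.38 with the poly-A block. Genes most like the brighter probe set were Slc6a14 (an amino acid transporter, r = 0.91), Cldn4 (a tight junction protein, r = 0.91) and Gpc3 (a glypican, r = 0.83).

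Egfr, the receptor of all the member ligands measured, had 5 probe sets, which did not move as 1. The brightest (1460420_a_at) measured 7.90, 8.60, 8.01 and 7.95 in MT, 7.75, 8.53, 8.30 and 7.97 in KO, and 7.602, 7.71, 7.92 and 8.01 in WT tumors. MT2 and KO2 were the highest and WT1 the lowest. Its differences were 0.32 for KO minus WT (SE 0.20, adjusted p = 0.347), 0.31 for MT minus WT (adjusted p = 0.419) and -0.02 for MT minus KO (adjusted p = 0.989).

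A further Egfr probe set (1424932_at) spread more widely, at 6.24, 8.001, 5.90 and 7.11 in MT, 7.001, 7.75, 7.01 and 7.08 in KO, and 5.83, 5.57, 6.98 and 7.06 in WT tumors. All KO tumors were at 7.001 or above, while MT and WT tumors split into high and low ones. KO minus WT was 0.85 (SE 0.47, interval -0.17 to 1.87, adjusted p = 0.291). At 1451530_at the levels were 6.20, 7.51, 6.24 and 6.47 in MT, 6.23, 6.82, 6.61 and 6.06 in KO, and 5.37, 5.09, 5.93 and 6.69 in WT tumors. WT1 to WT3 were below every MT and KO tumor and WT4 was not, and MT minus WT was 0.84 (SE 0.37, adjusted p = 0.246).

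These 3 probe sets correlated at r = 0.78 to 0.86 with each other. The remaining Egfr probe sets, 1454313_at and 1432647_at, spanned 0.66 and 0.63 over all 12 tumors, and 1454313_at correlated with the other 4 at -0.55 to 0.11. The Egfr probe sets thus ordered the tumors differently. The brightest one was most like Numbl (a Notch pathway adaptor, r = 0.96), Aplp1 (r = 0.94) and Lama3 (a laminin chain of epithelial basement membranes, r = 0.93).

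Among the ligands, Hbegf, a heparin-binding ligand of Egfr, had the widest spread. Its brighter probe set (1418350_at) measured 7.56, 10.04, 8.58 and 8.47 in MT, 8.67, 8.88, 8.32 and 9.55 in KO, and 6.73, 7.65, 8.56 and 8.19 in WT tumors. MT2 and KO4 were the highest and WT1 the lowest, a range of 3.31 on the log2 scale with overlapping genotypes. KO minus WT was 1.07 (SE 0.51, interval -0.05 to 2.19, adjusted p = 0.228), MT minus WT 0.88 (SE 0.51, adjusted p = 0.368) and MT minus KO -0.20 (adjusted p = 0.95).

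The other Hbegf probe set (1418349_at) followed it at r = 0.98, with KO minus WT at 0.94 (adjusted p = 0.219) and MT minus WT at 0.81 (adjusted p = 0.339). Single tumors carried much of the size of these differences. With MT2 left out the MT minus WT difference of the brighter probe set was 0.42, and with WT1 left out the KO minus WT difference was 0.72. Genes most like Hbegf were Hsd3b7 (r = 0.89), Npy4r (r = 0.88) and Ehd2 (an endocytic ATPase, r = 0.88).

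Ereg, epiregulin, a ligand of Egfr, was high in 1 tumor. Its probe set (1419431_at) measured 3.84, 6.43, 4.07 and 3.93 in MT, 3.85, 4.19, 4.10 and 4.18 in KO, and 3.84, 3.76, 4.00 and 3.95 in WT tumors. The 11 tumors other than MT2 lay between 3.76 and 4.19. The MT minus WT difference was 0.68 (SE 0.46, adjusted p = 0.442) with all tumors and 0.06 without MT2, MT minus KO was 0.49 (adjusted p = 0.806) and -0.13 without MT2, and KO minus WT was 0.19 (adjusted p = 0.842). The genes most like it, A2m (r = 0.96), Zfhx4 (r = 0.96) and Fosb (an AP-1 subunit, r = 0.93), are ranked on this 1 tumor.

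**Figure D4:**
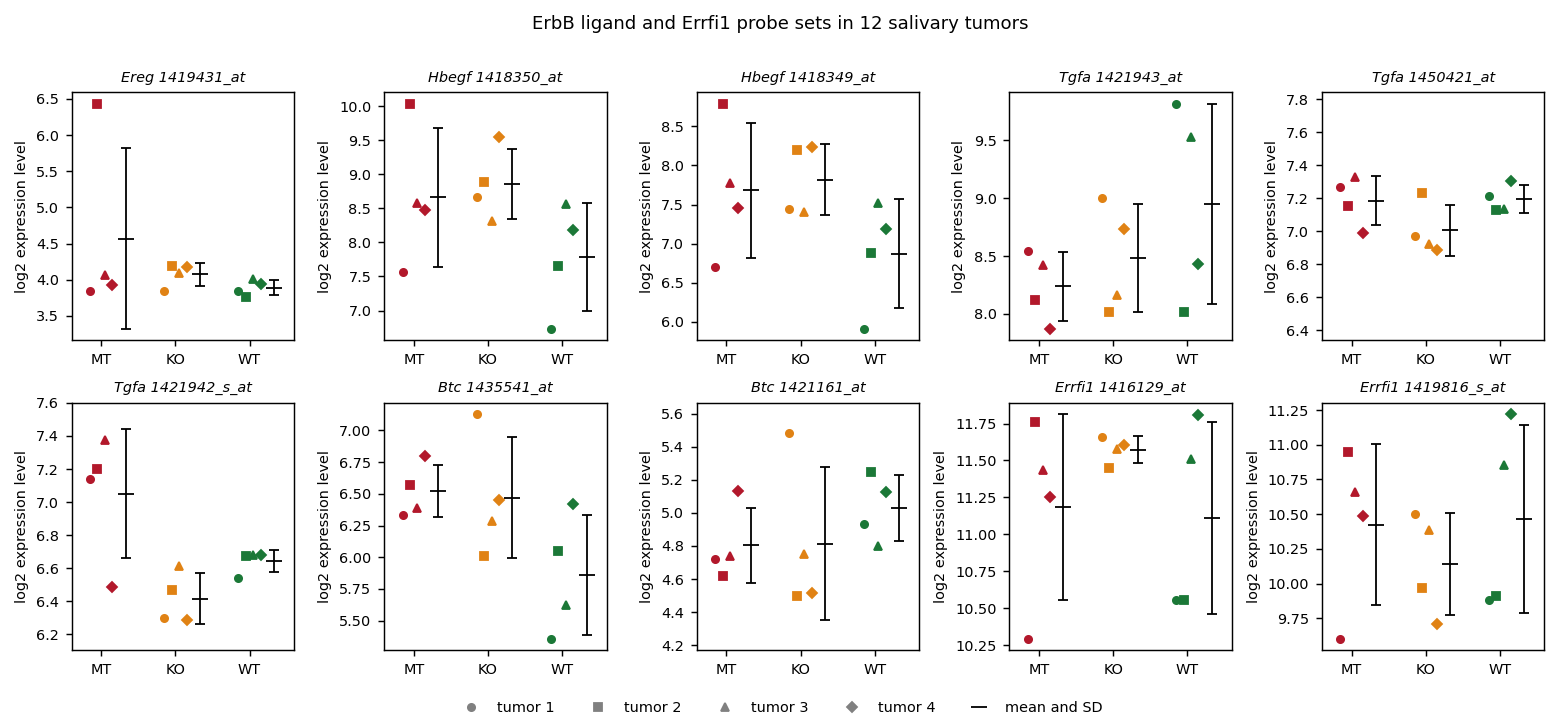
Log2 expression level (vertical axes) of the 10 ligand and Errfi1 probe sets in MT, KO and WT tumors, with 1 symbol per tumor and bars for the mean and SD of 4. MT2 stands at 6.43 for Ereg against at most 4.19 elsewhere, and MT1 to MT3 stand above all other tumors for Tgfa 1421942_s_at.

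Tgfa, transforming growth factor alpha, was read by 3 probe sets that disagreed. The brightest (1421943_at) measured 8.54, 8.12, 8.42 and 7.87 in MT, 9.003, 8.02, 8.17 and 8.74 in KO, and 9.82, 8.02, 9.53 and 8.43 in WT tumors. WT1 and WT3 were the highest and WT2 and WT4 lay among the rest. MT minus WT was -0.71 (SE 0.38, interval -1.54 to 0.12, adjusted p = 0.327), KO minus WT -0.47 (adjusted p = 0.485) and MT minus KO -0.24 (adjusted p = 0.90). WT1 and WT3 were also the tumors lowest in Erbb2. Genes most like it were Gnb1l (r = 0.95), Fmc1 (r = 0.89) and Eef1aknmt (r = 0.89).

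Tgfa 1421942_s_at measured 7.14, 7.20, 7.38 and 6.48 in MT, 6.30, 6.47, 6.61 and 6.29 in KO, and 6.54, 6.68, 6.68 and 6.68 in WT tumors. MT1 to MT3 lay above every other tumor and MT4 among the KO tumors, which is the split of the poly-A controls. It was the only 1 of 18 member probe sets parted this way, beside 4.67% of all probe sets. MT minus KO was 0.64 (SE 0.17, interval 0.26 to 1.01, adjusted p = 0.276) and MT minus WT 0.41 (SE 0.17, adjusted p = 0.226). With the poly-A block they were 0.07 and -0.16, and without MT4 they were 0.82 (adjusted p = 0.0156) and 0.60 (adjusted p = 0.0234). The third probe set, 1450421_at, spanned 0.44 over all 12 tumors.

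Btc, betacellulin, a ligand of Egfr and Erbb4, was low on the array. Its brighter probe set (1435541_at) measured 6.34, 6.57, 6.39 and 6.80 in MT, 7.13, 6.01, 6.29 and 6.45 in KO, and 5.35, 6.05, 5.62 and 6.42 in WT tumors. WT1 and WT3 were below all MT and KO tumors, and WT4 was above MT1, MT3, KO2 and KO3. MT minus WT was 0.66 (SE 0.26, adjusted p = 0.21), KO minus WT 0.61 (SE 0.26, adjusted p = 0.19) and MT minus KO 0.05 (adjusted p = 0.976). The other probe set (1421161_at) lay between 4.50 and 5.49, with differences from WT of -0.22 in MT and -0.21 in KO tumors, the opposite sign. Genes most like the brighter one were F11r (r = 0.92) and Cldn23 (r = 0.92), both of tight junctions, and Sel1l3 (r = 0.89).

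Errfi1, the feedback inhibitor of the receptor kinases (also called Mig6), had no call either. At 1416129_at it measured 10.29, 11.76, 11.43 and 11.25 in MT, 11.66, 11.45, 11.58 and 11.60 in KO, and 10.56, 10.56, 11.51 and 11.81 in WT tumors. The KO tumors kept within 0.21 of each other while MT1, WT1 and WT2 were the 3 lowest. KO minus WT was 0.47 (SE 0.34, adjusted p = 0.432), MT minus WT 0.08 (adjusted p = 0.926) and MT minus KO -0.39 (adjusted p = 0.78). The other probe set (1419816_s_at) ranged from 9.60 in MT1 to 11.22 in WT4 and correlated with it at r = 0.70, with KO minus WT at -0.33. Chmp5 (an ESCRT component, r = 0.88), Map3k1 (a MAP kinase kinase kinase, r = 0.86) and Clec4e (a macrophage lectin, r = 0.83) were most like it.

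From tumor to tumor, rather than by genotype, several members shared their extremes. MT2 was the highest of the 12 tumors at 6 of 18 probe sets, which were 3 of Egfr, both of Hbegf and that of Ereg, and KO1 at 4 of 18. Counted by each gene's brightest probe set, both were the highest at 3 of 8 genes, MT2 for Egfr, Ereg and Hbegf and KO1 for Erbb2, Erbb3 and Btc. WT1 was the lowest at 6 of 18 probe sets and at 5 of the 8 genes. The pairs of genes that correlated best over the 12 tumors fell along the same lines. Hbegf and Errfi1 came to 0.77, Egfr and Ereg to 0.70, Egfr and Hbegf to 0.69, and Ereg and Hbegf to 0.68, where MT2 was the 1 high tumor for Ereg. Erbb3 and Btc came to 0.73, Erbb2 and Btc to 0.69, and Erbb2 and Erbb3 to 0.57. Egfr and Errfi1 correlated at 0.54. How often MT2 or KO1 was the highest tumor, or WT1 the lowest, over all probe sets was not counted. The shared extremes therefore cannot be called particular to the members.

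**Figure D5:**
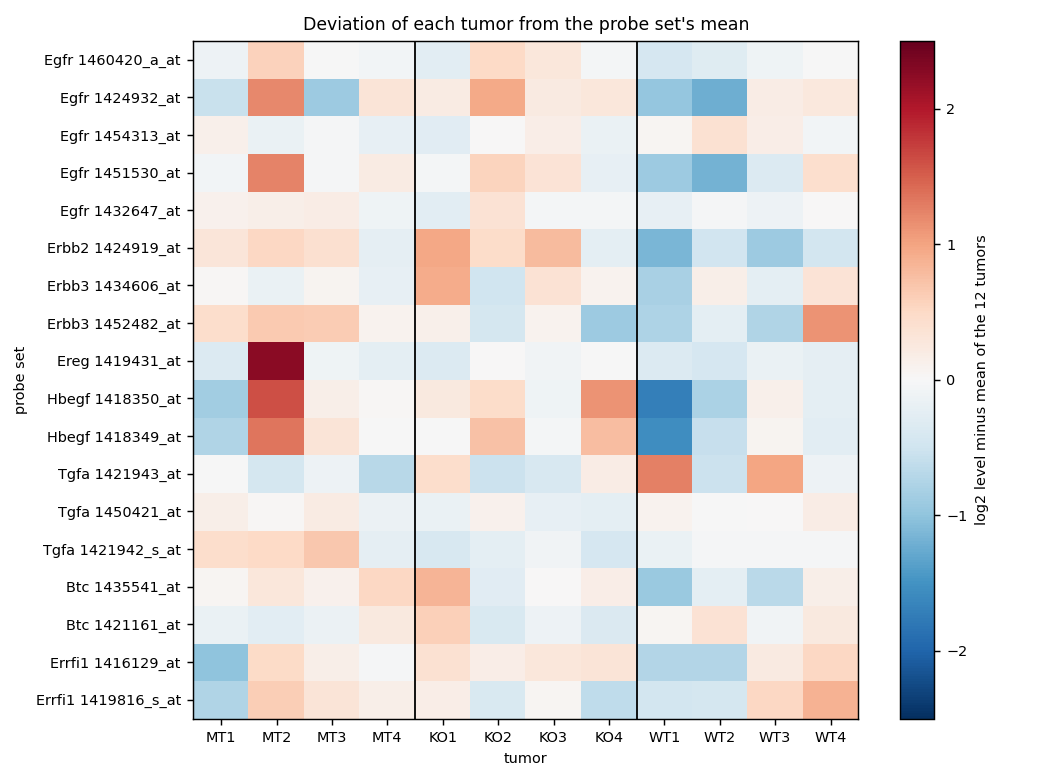
Log2 level of each tumor (columns) minus the mean of the 12 tumors, for the 18 probe sets (rows), with MT, KO and WT separated by lines. MT2 is high for Egfr, Ereg and Hbegf, and the WT columns are low for Erbb2.

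A list of 65 other genes of the pathway, with the Erbb2 neighbors included, was examined beside the members, and 55 were measured, each by its brightest probe set. In KO against WT tumors 2 rose and none fell, beside 4.58% of all genes called. None was called in MT against WT tumors, where 0.412% of all genes were, or in MT against KO tumors, where 0% were. Below an unadjusted p of 0.05 lay 15 of the 55 for KO against WT (23.9% of all genes), 12 for MT against WT (18.7%) and 6 for MT against KO (7.65%). With 2 of 55 near the share of all genes, the calls do not set this list apart. Both called genes are among the 15 measured genes listed for receptor down-regulation, and that role was not tested. Lrig1, a membrane protein that promotes degradation of ErbB receptors, measured 8.89, 9.12, 9.10 and 8.24 in MT, 9.30, 9.46, 9.48 and 10.15 in KO, and 8.35, 8.90, 8.77 and 8.43 in WT tumors. KO and WT tumors did not overlap, as at 14.5% of all probe sets. It was higher in KO by 0.98 (SE 0.23, adjusted p = 0.0404), and MT minus WT was 0.22 (adjusted p = 0.632).

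Ptprj, a receptor phosphatase that acts on Egfr, measured 8.81, 8.59, 8.80 and 8.82 in MT, 8.67, 8.95, 8.56 and 8.13 in KO, and 7.47, 8.22, 7.51 and 7.31 in WT tumors. All MT tumors and 3 of 4 KO tumors lay above the WT tumors. MT and WT tumors do not overlap at 10.9% of all probe sets. KO minus WT was 0.95 (SE 0.21, adjusted p = 0.0316) and MT minus WT 1.13 (SE 0.21, adjusted p = 0.0516). Other probe sets of these genes differed. For Ptprj 1427629_at gave 0.75 in KO minus WT (adjusted p = 0.0196) but 1425587_a_at and 1425588_at gave -0.05 and -0.11, and for Lrig1 1434210_s_at gave 0.97 (adjusted p = 0.0796) and 1419928_at -0.35 (adjusted p = 0.12). Either call was lost when KO1, KO2, KO3, WT1, WT3 or WT4 was left out, with adjusted p between 0.0506 and 0.104, and that of Lrig1 also without MT1, MT3 or KO4.

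By role, the 15 measured genes of receptor down-regulation and feedback had a difference from WT above 0 in 13 cases for KO and 14 for MT tumors, beside 48.3% and 48.8% of all genes, with medians of 0.24 in both, beside -0.01 over all genes. The 14 adaptors and proximal signaling genes were above 0 in 13 cases for KO and 12 for MT tumors, with medians of 0.30 and 0.22, and none was called. The other receptors and ligands were above 0 in 2 of 5 cases for KO and 1 of 5 for MT tumors. For receptor partners and stabilizers it was 6 of 9 and 5 of 9. For shedding and trafficking genes it was 6 of 7 and 5 of 7. The shares of all genes include dim ones. Of 12169 probe sets above the array's median level in at least 4 tumors, 6802 lay above 0 for KO and 6632 for MT tumors. These counts carry no test of the lists. Over all 55 genes MT minus KO was above 0 in 28, beside 53.3% of all genes. Among 7 shedding and trafficking genes none was called. Adam10, a sheddase of Egfr ligands, picked here after its values were known, measured 9.93, 9.23, 9.88 and 11.11 in MT, 10.88, 10.60, 10.89 and 11.48 in KO, and 9.75, 9.20, 9.60 and 10.04 in WT tumors, with KO minus WT at 1.31 (SE 0.35, adjusted p = 0.0534). The KO and WT tumors did not overlap at Adam10, as at 14.5% of all probe sets.

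Of the other receptors and ligands, 5 of 7 were measured and none was called. Erbb4 and Egf, with the duct marker Klk1, are named after their values were known. Erbb4, the fourth receptor, stayed between 3.48 and 3.91 in all tumors. Egf, which is made by granular ducts of the mouse salivary gland, read 10.39 in KO3 and 7.85 in KO4, 5.24 and 5.81 in KO1 and KO2, 5.41 to 6.31 in MT and 6.35 to 7.17 in WT tumors. The granular duct list, with 1 of 5 markers measured (Klk1), read 11.60 in KO3 and 4.19 in KO4, 7.93 and 4.21 in KO1 and KO2, 3.85 to 4.18 in MT and 4.29 to 5.37 in WT tumors. It was highest in the tumor with the most Egf, but second in KO1, which had the least, and its part in the Egf level was not tested.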

How the data were processed

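The values analysed were the deposited log2 expression levels of 12 tumors on Affymetrix mouse expression arrays. Per the study's methods the authors made them with RMA (background correction, normalization between arrays and summary of each probe set) in BRB-ArrayTools. The submitters' processing notes name both RMA and MAS5. Intensity files were not used here. The annotation named 20380 of 22626 probe sets by a single symbol, 691 by several and 1555 by none, and 64 control probe sets were left out.

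A mean per genotype was estimated from all 12 tumors by lmFit and eBayes of limma 3.58.1, run under R 4.3.3. Tests were 2-sided, with Benjamini-Hochberg adjustment over all 22626 probe sets and a threshold of 0.05. SAM for 3 groups was run as an alternative with 100 permutations. The labels do not say whether tumors came from separate mice, so the p-values cover only the spread seen between the tumors measured. Members, lists and rules were chosen with earlier results of these data known. Named genes are all members, the 3 genes most like each member's brightest probe set, called genes of the list, and any others that the text marks as picked after the values were known. Tested on simulated data for KO against WT over 22626 probe sets, limma found 61 of 100 true log2 shifts of 1 and 91 of 100 true shifts of 2, and made 11 false calls. Same-numbered tumors were correlated above 0.1 in 6 of 12 pairs and were not treated as paired. Results were recomputed with dim probe sets removed, array centering, cyclic loess, other fits, weights, blocks, thresholds, and each tumor left out.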

Additional observations from a re-analysis of the deposited data

Results flagged for a closer look

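Within each genotype's 4 tumors, the gap of the highest or lowest tumor to its neighbor was set against the group's range, and 4 of 54 groups exceeded Dixon's 95% critical value, where chance gives about 5% of groups. MT2 measured 6.43 for Ereg, against 3.84 to 4.07 in the other MT tumors. The same tumor measured 8.60 for Egfr 1460420_a_at, against 7.90 to 8.01 in the other MT tumors. KO2 measured 7.75 for Egfr 1424932_at, against 7.001 to 7.08 in the other KO tumors. WT1 measured 6.54 for Tgfa 1421942_s_at, against 6.676 to 6.68 in the other WT tumors.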

How the results depend on the processing

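With 4 arrays per genotype the number of arrays limits the precision, and the alternatives mostly moved calls across the threshold. The member count for KO against WT was 1 and became 0 in a fit to only the 8 tumors compared and with the methods' t statistic, and 0 to 1 with single tumors left out. Erbb2 then had adjusted p of 0.0643 and 0.136. For MT against WT it was 0 and became 5 with array weights, a setting that called 22.0% of all probe sets, and 0 to 2 with single tumors left out. The 5 were Erbb2, Btc, the dimmer Erbb3 probe set 1452482_at, Tgfa 1421942_s_at and, lower than in WT, Tgfa 1421943_at. The 2 came without MT4, where 3.54% of all probe sets were called. MT against KO gave 0 to 1, the 1 being Tgfa without MT4 (1.04% of all probe sets called). The count over 3 genotypes stayed at 0.

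Pathway calls for KO against WT (2) became 1 with cyclic loess, 1 with the 8 tumors compared and 11 with array weights. These settings called 4.22%, 1.65% and 14.5% of all probe sets. The calls became 5 with the hybridization control level as covariate (6.18% of all) and 0 with the t statistic (0.0442% of all). At an adjusted p under 0.1 they became 5, where 2541 of 22626 probe sets passed. With single tumors left out they came to 0 to 4 (0.866% to 6.01% of all). For MT against WT (0) they became 1 without dim probe sets (1.08% of those tested) and 15 with array weights (22.0% of all). At an adjusted p under 0.1 they became 1, where 618 of 22626 probe sets passed. With single tumors left out they came to 0 to 3 (0.0177% to 3.54% of all). MT against KO gave 0 to 1, the 1 being without MT4 (1.04% of all).

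Of 31 differences followed, 23 kept their sign in every alternative. With the poly-A block the sign turned for Erbb3 1434606_at MT minus WT (-0.062), Ereg MT minus KO (-0.15) and Tgfa 1421942_s_at MT minus WT (-0.16). Array weights and the hybridization covariate turned Errfi1 1416129_at MT minus WT (-0.11 and -0.031) and Tgfa 1421943_at MT minus KO (0.012 and 0.016). With single tumors left out the ranges were -0.18 to 0.11 for Egfr 1460420_a_at MT minus KO, -0.15 to 0.23 for Erbb3 MT minus WT, -0.13 to 0.73 for Ereg MT minus KO, -0.65 to 0.17 for Hbegf 1418350_at MT minus KO, -0.10 to 0.27 for Btc 1435541_at MT minus KO and -0.12 to 0.37 for Errfi1 MT minus WT. The cause was not tested.

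A replicate block for the tumor numbers left the member counts at 1, 0 and 0. It gave 3 pathway calls for KO against WT, where 4.50% of all probe sets were called. Erbb2 had an adjusted p of 0.0435 there, and Lrig1 one of 0.0624. The numbers do not pair the tumors in any source used here.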
